A study of Mus musculus with 234 samples.

Results

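Fos, Fosb, Fosl2, Jun, Junb, Egr1, Atf3, Btg2, Nr4a1 and Ier2 are immediate-early and stress-responsive transcription genes. These 10 genes were chosen by name, on their shares of positive cells and on their co-expression within the 5 genotype labels of these same cells, so both are given here as a description and not as a test. They are 10 of the 55538 features of the count table, and each has exactly 1 row. Fos, Fosb and Fosl2 encode the Fos subunits and Jun and Junb the Jun subunits of the dimeric transcription factor AP-1. Egr1 encodes a zinc finger transcription factor, Atf3 a bZIP factor of the ATF/CREB family that is induced by cellular stress, and Nr4a1 an orphan nuclear receptor. Btg2 encodes an antiproliferative cofactor that is a p53 target, and Ier2 encodes a nuclear immediate-early protein.

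Immediate-early genes are transcribed without new protein synthesis. Growth factor, calcium, cAMP and stress signals reach their promoters through MAP kinases and CREB, through serum response factor with its ternary complex partners, and through AP-1 itself. In the heart they respond to stretch, adrenergic stimulation and ischemia, and they are also known to rise while a tissue is being dissociated into cells. Messages of this class are short-lived, so that single cells often differ in them.

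The cells were single cardiomyocytes (CMs) that had been picked by hand from hearts dissociated by enzyme perfusion on a Langendorff system, and full-length mRNA libraries without molecular identifiers were made by SMART-seq2. The transgenic mice carried a mutant human BAG3 fused to eGFP (flox-hBAG3P209L-eGFP), driven by the ubiquitous CAG promoter, inserted into the Rosa26 locus of 1 embryonic stem cell clone and switched on by PGK-Cre, which acts in all tissues. Mice M25 and M116 were homozygous (strain label PGKcre:BAG3P209L_homo), mouse M72 was heterozygous (PGKcre:BAG3P209L_het), and mice M26 and M73 were controls. The labels give the controls as wild type of strain C57BL/6, whereas the methods describe controls as siblings without an active transgene on a mixed background. The mice reported in the study were 2 weeks old, and the age of mouse M72 is not given in the sources used here. CMs of transgenic mice were labelled bright or dim by their eGFP fluorescence. There were 24 and 9 control CMs from mice M26 and M73, 21 and 59 homozygous bright CMs from mice M25 and M116, 18 and 50 homozygous dim CMs from the same 2 mice, and 27 bright and 26 dim CMs from mouse M72.

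A cell held 487 to 1392253 counts, and the median per mouse and brightness class ranged from 498819 to 1053324. Fewer than 1000 genes had a count in 15 cells, and 25.2% to 30.8% of the counts of the median cell lay on mitochondrially encoded genes. The mouse is the replicate, and levels are CPM, counts scaled to a total of 1000000, of the counts summed over the cells of a mouse and brightness class. In such sums, fewer cells with a message and less message per cell cannot be told apart, which is why shares of positive cells and cell medians are given beside them. Mice M25 and M26 lie on the plate series GL-9122b and M116, M72 and M73 on the series GL9989, so each comparison of M116 with M25 is also one between plate series, and animal and plate series cannot be told apart.

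The label of cardiomyocyte was checked against 10 CM markers, all of which had counts in every mouse and brightness class, with a summed level of 83670 to 103900 CPM. Of the bright CMs of M25, 3 of 21 cells went against it. Their summed CM markers were 1484, 2123 and 4789 CPM, against a median of 90840 CPM over all cells and 48830 CPM in the next lowest cell. The first of these cells held 849593 counts and had 50110 CPM on 8 fibroblast markers, among them 19050 CPM of Dcn and 11590 CPM of Col3a1, and 867 CPM of hBAG, the human BAG3 feature. The other 2 cells had 1117 and 938 genes with a count and at most 19.4 CPM on the fibroblast markers. Levels, fold changes and main correlations of the bright CMs of M25 that move with these 3 cells are given with and without them.

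Fos, Atf3, Btg2 and Nr4a1 had higher levels in M116 than in every other mouse, and the 250 bases before their start sites are shown because each holds TGACG, the core of the cAMP response element, on at least 1 strand. The sequences are those of RefSeq on GRCm38.p6, read 5′ to 3′ on the gene's strand, with TGACG or its reverse complement and the full palindrome TGACGTCA in capitals. Fos lies on the plus strand at chr12:85473640-85473889, Nr4a1 on the plus strand at chr15:101266596-101266845, Atf3 on the minus strand at chr1:191183334-191183583 and Btg2 on the minus strand at chr1:134079156-134079405.
Fos: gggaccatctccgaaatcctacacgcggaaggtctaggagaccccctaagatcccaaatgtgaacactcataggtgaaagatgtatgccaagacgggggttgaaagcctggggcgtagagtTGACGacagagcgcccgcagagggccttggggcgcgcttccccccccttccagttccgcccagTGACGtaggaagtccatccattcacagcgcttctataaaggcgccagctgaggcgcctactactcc
Atf3: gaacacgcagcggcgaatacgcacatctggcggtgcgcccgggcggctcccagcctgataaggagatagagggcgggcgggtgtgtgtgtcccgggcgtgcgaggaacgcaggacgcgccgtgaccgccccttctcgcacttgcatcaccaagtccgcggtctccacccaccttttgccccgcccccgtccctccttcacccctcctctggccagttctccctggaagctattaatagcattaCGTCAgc
Btg2: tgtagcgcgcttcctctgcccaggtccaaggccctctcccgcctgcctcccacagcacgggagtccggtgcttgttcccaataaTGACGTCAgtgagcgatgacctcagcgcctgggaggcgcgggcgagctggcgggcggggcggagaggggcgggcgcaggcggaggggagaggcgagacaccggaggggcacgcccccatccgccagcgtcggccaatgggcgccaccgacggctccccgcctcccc
Nr4a1: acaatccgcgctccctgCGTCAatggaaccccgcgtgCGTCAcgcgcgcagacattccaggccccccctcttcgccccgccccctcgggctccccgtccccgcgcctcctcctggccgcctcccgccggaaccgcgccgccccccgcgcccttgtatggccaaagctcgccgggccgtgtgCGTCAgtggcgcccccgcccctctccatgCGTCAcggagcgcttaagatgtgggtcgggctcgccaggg

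RefSeq promoters were at hand for 8 of the 10 genes (Fos, Fosb, Fosl2, Jun, Junb, Atf3, Btg2 and Nr4a1), and TGACG was found on either strand in 6 of them, against 17.8% of all 32851 promoters of the same length. Counted from the start site, it began at positions -129 and -66 in Fos, at -7 in Atf3, at -166 and -163 in Btg2, and at -233, -213, -69 and -40 in Nr4a1. It was also found at -60 in Fosb and at -106 in Junb. Junb was not highest in M116, and Fosl2, which was, held no TGACG, nor did Jun. The palindrome TGACGTCA, which contains TGACG on both strands, occurred in Btg2 alone of the 8, at position -166, and in 1.55% of all promoters. GCGNGGGCG, the motif bound by Egr1, occurred in Fosb, Fosl2, Btg2 and Nr4a1 and in 4.70% of all promoters. The CArG box bound by serum response factor (1.47% of all promoters), the AP-1 motif TGANTCA (6.75%) and the ETS motif CCGGAAG (6.91%) were in none of the 8 windows. These are exact matches of letters in a short window, and distal elements lie outside it. Related sequences such as TGACATCA, which is present in the Jun window, are not counted by these patterns.

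The share of cells with at least 1 count was higher in both homozygous mice than in both control mice for Atf3, Btg2, Fos, Jun, Nr4a1 and Egr1, in bright as well as in dim CMs, and for Fosl2 in dim CMs. These are 6 of 9 genes tested in bright CMs, where 36.5% of all genes tested were higher in this way, and 7 of 9 in dim CMs, where 40.2% were; the genes were chosen on these shares, so nothing is read from the counts. Averaged over the 10 genes, it was 39.2% ± 5.20 in control CMs, 63.5% ± 0.417 in homozygous bright CMs and 64.5% ± 3.24 in homozygous dim CMs (SD, n = 2 mice each), with 48.9% and 54.2% in the bright and dim CMs of heterozygous M72. A median CM had counts on 4 of the 10 genes in both control mice, on 7 in each class of the homozygous mice, and on 5 (bright) or 6 (dim) in M72.

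**Figure D1:**
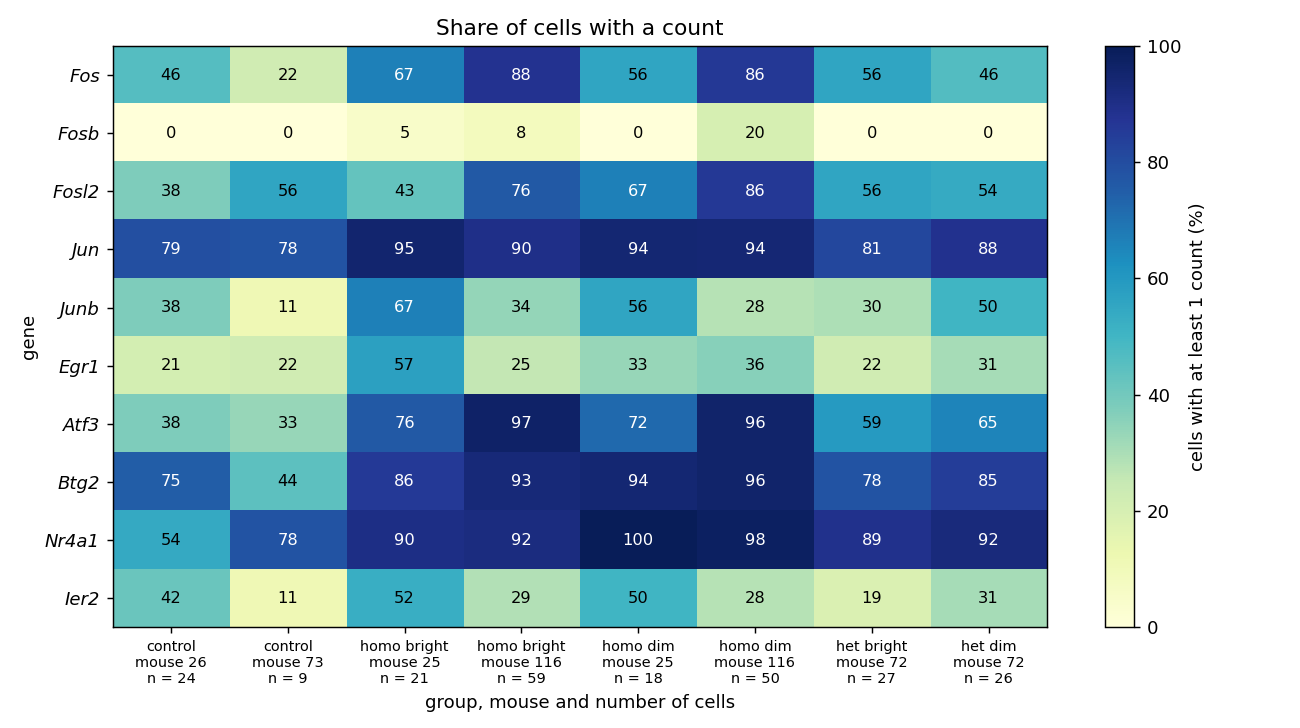
Share of cells with at least 1 count, in percent, for each gene (rows) and each mouse and brightness class (columns, with the number of cells). Atf3 stands at 33.3% and 37.5% in control CMs and at 72.2% or more in homozygous CMs, whereas Jun lies at 77.8% or more in every column and Fosb at 20.0% or less.

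Atf3 had the widest gap in share between control and homozygous mice. It was found in 9 of 24 CMs of control M26 (37.5%, exact Clopper-Pearson 95% interval 18.8% to 59.4%) and in 3 of 9 CMs of control M73 (33.3%, 7.49% to 70.1%). In M25 it was found in 16 of 21 bright CMs (76.2%, 52.8% to 91.8%) and 13 of 18 dim CMs (72.2%, 46.5% to 90.3%), and in M116 in 57 of 59 bright CMs (96.6%, 88.3% to 99.6%) and 48 of 50 dim CMs (96.0%, 86.3% to 99.5%). M72 lay between these with 59.3% of bright and 65.4% of dim CMs. The groups of control and homozygous mice did not overlap, and M116 lay above M25 in both classes. These intervals cover counting error only.

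Btg2 was found in 18 of 24 and 4 of 9 control CMs of M26 and M73, in 85.7% and 93.2% of the bright CMs of M25 and M116, and in 94.4% and 96.0% of their dim CMs. Fos was found in 45.8% and 22.2% of control CMs, in 66.7% and 88.1% of homozygous bright CMs and in 55.6% and 86.0% of homozygous dim CMs, in the same order of mice. Nr4a1 was found in 54.2% and 77.8% of control CMs and in at least 90.5% of the CMs of each homozygous class, and in M72 it reached 88.9% of bright and 92.3% of dim CMs. Jun was widely found in controls already, with 79.2% and 77.8% of CMs, against 89.8% to 95.2% in the homozygous classes.

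Junb, Egr1 and Ier2 followed another pattern, in which M25 lay at or above M116 in most classes. Junb was found in 66.7% of bright and 55.6% of dim CMs of M25 but in 20 of 59 and 14 of 50 of those of M116, next to 37.5% and 11.1% in control M26 and M73. Ier2 was found in 11 of 21 and 9 of 18 bright and dim CMs of M25, in 17 of 59 and 14 of 50 of those of M116, and in 41.7% and 11.1% of control CMs. Egr1 was found in 57.1% of the bright CMs of M25 and in 20.8% to 36.0% of the cells of the 7 other mouse and brightness classes. The homozygous mice overlapped with the controls in Junb and Ier2.

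Fosl2 was found in 37.5% and 55.6% of control CMs, in 42.9% and 76.3% of homozygous bright CMs and in 66.7% and 86.0% of homozygous dim CMs. Fosb was the scarcest of the 10 genes. It had counts in 5 of 59 bright and 10 of 50 dim CMs of M116 and in 1 of 21 bright CMs of M25. No count was seen in 24 and 9 control CMs, in 18 dim CMs of M25 or in 27 bright and 26 dim CMs of M72, which, taking 3 cells as the limit that a count of 0 allows, leaves room for shares of up to 12.5%, 33.3%, 16.7%, 11.1% and 11.5%.

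Depth moved with these shares in part. The median total counts were 932052 and 498819 in control M26 and M73, 923016 and 735315 in the bright CMs of M25 and M116, and 541665 in the bright CMs of M72. When every cell was thinned to 200000 counts, which left out 4 and 1 control CMs, 7 bright and 2 dim CMs of M116, and 4 bright and 2 dim CMs of M72, the mean share over the 10 genes was 32.5% in control M73 and 45% in control M26, 58.6% and 61.0% in homozygous bright CMs and 56.7% and 66.5% in homozygous dim CMs of M25 and M116. Atf3 was then found in 6 of 20 and 2 of 8 control CMs and in 61.1% to 95.8% of the cells of the homozygous classes.

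The summed levels separated the genes into 2 sets. Fos, Fosl2, Atf3, Btg2 and Nr4a1 had their highest levels in the bright and dim CMs of M116, while Jun, Junb, Egr1 and Ier2 had theirs in the bright CMs of M25. Without the 3 cells low in CM markers, Jun and Egr1 in the bright CMs of M25, at 79.1 and 34.9 CPM, lay below the dim CMs of M72, at 82.8 and 47.4 CPM, where 1 of 26 cells held 82.9% of the Egr1 counts. Fosb, which was barely measured, also peaked in M116, with 3.85 CPM in bright and 1.95 CPM in dim CMs.

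Atf3 stood at 8.83 and 10.3 CPM in control M26 and M73, at 37.4 and 246 CPM in the bright CMs of M25 and M116, at 31.7 and 316 CPM in their dim CMs, and at 26.5 and 59.0 CPM in the bright and dim CMs of M72. The control mean was 9.54 CPM ± 1.00 (SD, n = 2), and all other sums lay above both controls. Single cells carried much of the control levels: 1 cell held 43.4% of the Atf3 counts of M26 and 88.1% of those of M73, and without the 3 highest cells the levels were 2.18 and 0.0 CPM. Between the homozygous mice the level differed 6.58-fold in bright and 9.95-fold in dim CMs, while bright over dim was 1.18 in M25 and 0.779 in M116. The median bright CM held 13.8 CPM in M25 and 214 CPM in M116, and the median dim CM 25.5 and 249.4 CPM, against 0.0 CPM in both control mice. The 3 highest of the 59 bright cells of M116 held 17.8% of the counts.

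**Figure D2:**
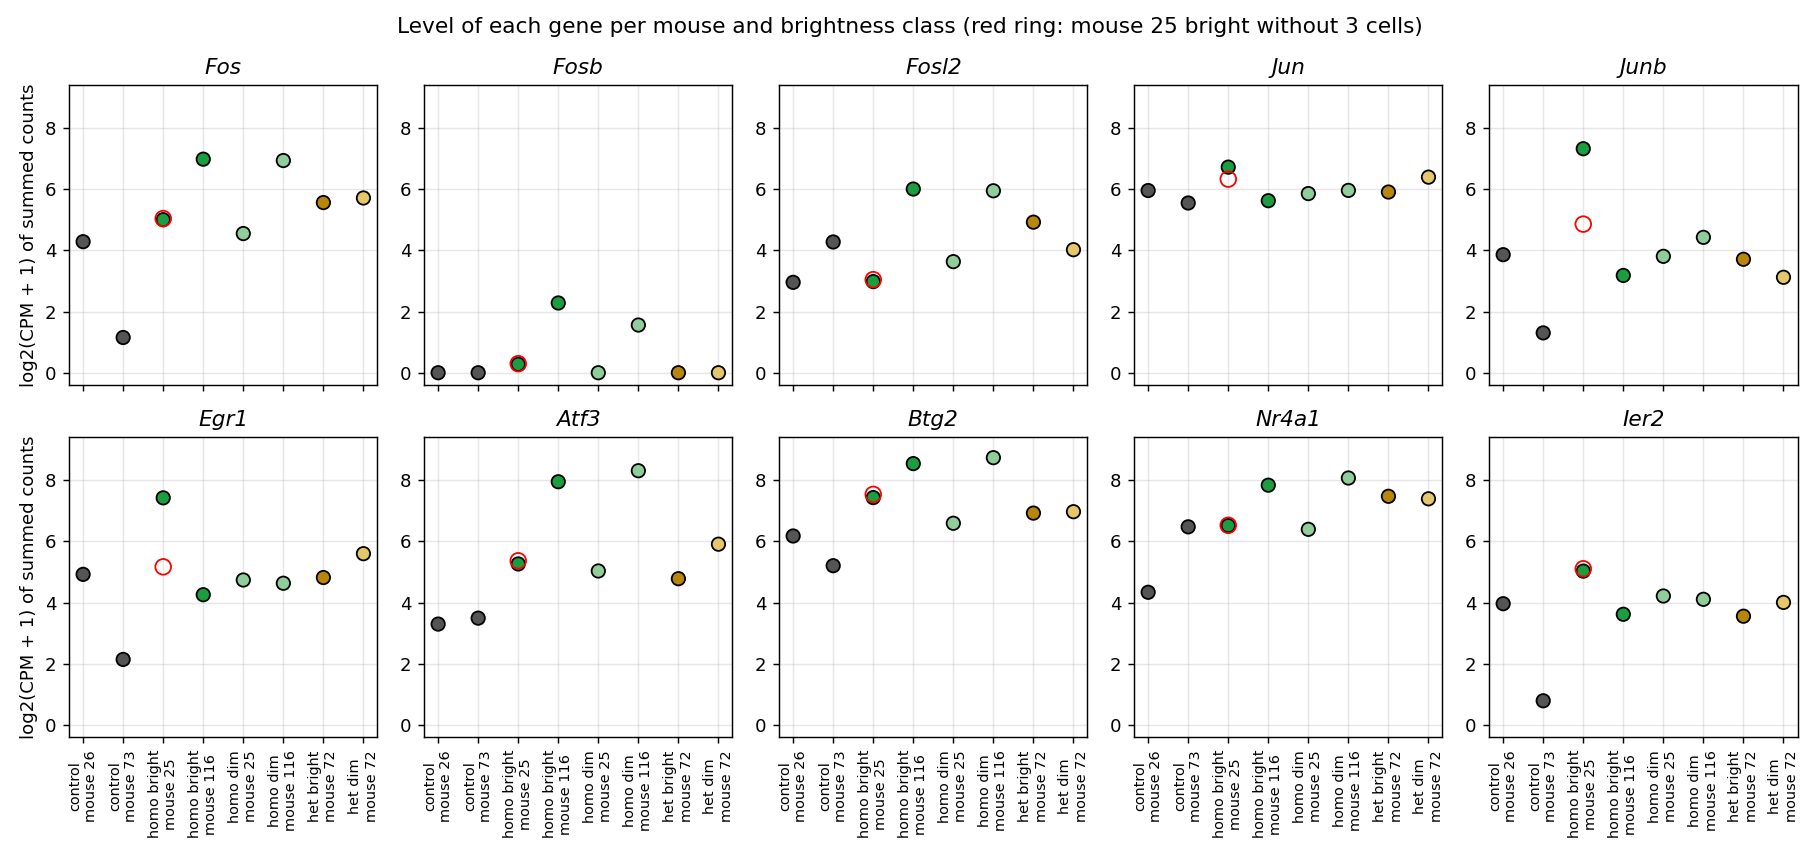
Level of each gene as log2(CPM + 1) of the counts summed over the cells of a mouse and brightness class (1 point each, coloured by group). Red rings give the bright CMs of M25 without the 3 cells low in CM markers, where Junb moves from 158 to 27.9 CPM and Egr1 from 170 to 34.9 CPM.

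Btg2 stood at 71.2 and 35.9 CPM in the control mice, at 171 and 371 CPM in homozygous bright CMs of M25 and M116, at 95.4 and 424 CPM in their dim CMs, and at 120 and 124 CPM in the bright and dim CMs of M72. Fos stood at 18.4 and 1.22 CPM in controls, where the value of M73 rests on 5 counts. For each of the 9 genes found in M73, 3 of its 9 cells held at least 85.0% of the counts. In homozygous CMs Fos had 31.0 and 125 CPM (bright) and 22.4 and 121 CPM (dim) in M25 and M116, and in M72 it had 46.1 CPM in bright and 51.2 CPM in dim CMs. For Btg2 and Fos the lowest homozygous sum lay above the highest control sum, but the spread between M25 and M116 was larger than the gap between M25 and control M26.

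Nr4a1 stood at 19.2 and 87.9 CPM in control M26 and M73, at 90.4 and 227 CPM in homozygous bright CMs, at 83.0 and 267 CPM in homozygous dim CMs, and at 177 and 167 CPM in the bright and dim CMs of M72. The dim CMs of M25 thus lay below control M73, but 3 of the 9 cells of M73 held 92.2% of its Nr4a1 counts, and without the 3 highest cells of each sum the order turned, with 59.8 CPM in the dim CMs of M25 and 11.9 CPM in M73. Fosl2 stood at 6.74 and 18.3 CPM in controls, at 6.87 and 63.0 CPM in homozygous bright CMs, at 11.4 and 60.5 CPM in homozygous dim CMs and at 29.2 and 15.2 CPM in M72. In Fosl2 both classes of M25 fell within the range of the controls, whose upper end rests on 3 cells of M73 with 94.7% of its counts. Without the 3 highest cells of each sum, Fosl2 was at 3.24 and 5.90 CPM in the bright and dim CMs of M25, above the 2.38 and 1.70 CPM of M26 and M73. Atf3, Btg2 and Nr4a1 in M116 lay in most of its CMs: the 3 highest cells held 17.8%, 14.8% and 17.1% of their counts in the 59 bright CMs.

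Junb stood at 13.5 and 1.46 CPM in control M26 and M73, at 158 and 8.05 CPM in homozygous bright CMs of M25 and M116, and at 12.9 and 20.4 CPM in their dim CMs. Egr1 stood at 29.3 and 3.42 CPM in controls, at 170 and 18.1 CPM in homozygous bright CMs and at 25.7 and 23.8 CPM in homozygous dim CMs. Both peaks were carried by the cell with 50110 CPM of fibroblast markers, which held 2950 CPM of Junb and 3067 CPM of Egr1, as well as 679 CPM of Jun, but no count of Atf3 and 1.18 CPM of Btg2. Together the 3 cells low in CM markers held 83.6% of the Junb counts, 80.9% of the Egr1 counts and 29.4% of the Jun counts of the bright CMs of M25. Without them the level was 27.9 CPM for Junb and 34.9 CPM for Egr1, and bright over dim in M25 went from 12.2 to 2.16 for Junb and from 6.63 to 1.36 for Egr1.

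Atf3, Btg2 and Fos changed little when these cells were left out, from 37.4 to 40.2, from 171 to 184 and from 31.0 to 31.8 CPM. The share of positive cells among the remaining 18 bright CMs of M25 was 88.9% for Atf3, 94.4% for Btg2, 72.2% for Fos and Junb and 55.6% for Egr1. The plot of single cells shows the contrast.

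**Figure D3:**
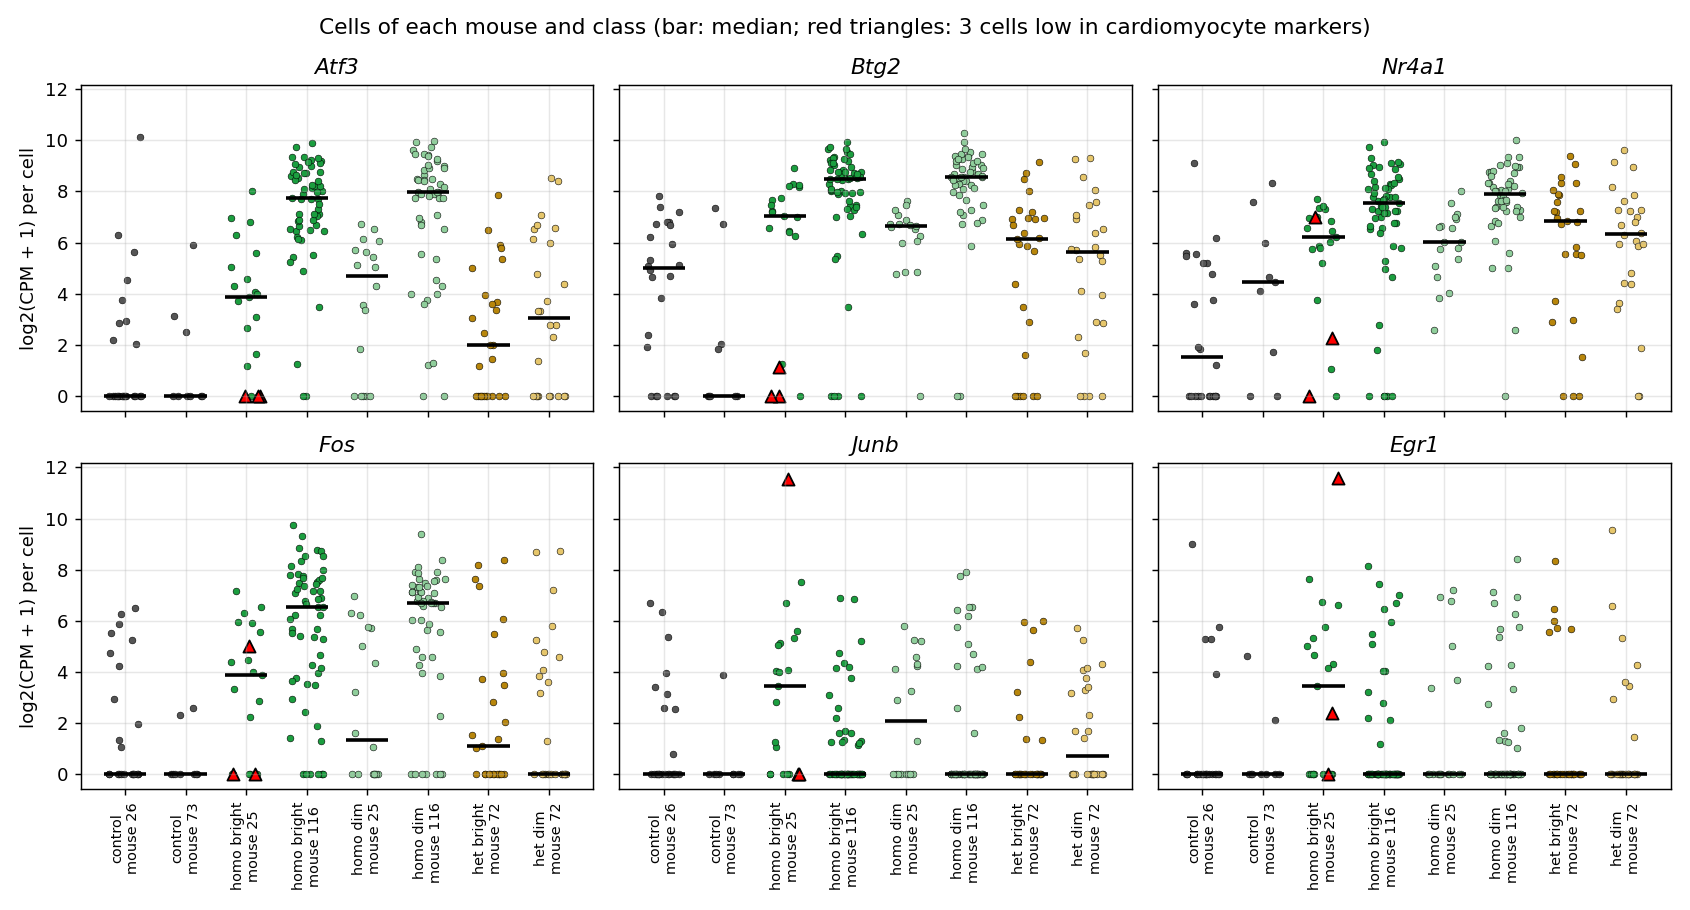
Each point is 1 cell, as log2(CPM + 1), for 6 of the genes by mouse and brightness class, with black bars at the median and red triangles for the 3 bright cells of M25 that are low in CM markers. Atf3 and Btg2 form high bands in M116, whereas 1 triangle lies above all other cells in Junb and Egr1, at 2950 and 3067 CPM.

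Jun stood at 60.9 and 45.6 CPM in control M26 and M73, at 104 and 48.1 CPM in homozygous bright CMs, at 56.7 and 61.1 CPM in homozygous dim CMs and at 58.8 and 82.8 CPM in the bright and dim CMs of M72. Control and homozygous sums overlapped in Jun, and without the 3 cells the bright CMs of M25 had 79.1 CPM. Ier2 stood at 14.6 and 0.732 CPM in controls, the latter from 3 counts, at 31.6 and 11.3 CPM in homozygous bright CMs and at 17.6 and 16.2 CPM in homozygous dim CMs. In Ier2 the bright CMs of M116 lay between the control mice, and M72 had 10.8 and 15.1 CPM in bright and dim CMs.

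Per kilobase of merged exon (GENCODE M21, matched by symbol), the median level over the 8 sums was highest for Btg2 with 44.6 CPM per kb and Nr4a1 with 36.6 CPM per kb. Jun (18.8), Fos (16.4) and Atf3 (16.0 CPM per kb) came next and were close to each other, followed by Ier2 with 9.75, Egr1 with 5.90, Junb with 5.43, Fosl2 with 1.73 and Fosb with 0.0 CPM per kb. The neighbours Jun, Fos and Atf3, and likewise Egr1 and Junb, differed by less than the range of any of them over the sums.

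M116 was spread over 2 plates, GL9989-2 (29 bright and 29 dim cells) and GL9989-3 (30 bright and 21 dim cells), which gives the spread between plates within 1 animal. Atf3 had 309 and 325 CPM in dim CMs on the 2 plates, and the higher plate exceeded the lower 1.05-fold in dim and 1.10-fold in bright CMs. Btg2 differed 1.05-fold and 1.10-fold between plates, Fos 1.53-fold and 1.17-fold, and Nr4a1 1.28-fold and 1.47-fold in bright and dim CMs. These ratios lay below the 2.17-fold (Btg2, bright CMs) to 9.95-fold (Atf3, dim CMs) ratios of M116 over M25 in the same 4 genes. Both plates belong to the series GL9989, whereas M25 lies on GL-9122b. The spread between them therefore does not measure that between plate series, which was not tested. Junb, in contrast, differed 7.93-fold and 3.83-fold between the plates of M116 and Ier2 2.75-fold and 1.95-fold.

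Within the plate series GL-9122b, Atf3 in M25 was 4.23 times (bright) and 3.59 times (dim) the level of control M26. Within the series GL9989 it was 24.0 and 30.8 times the level of control M73 in the bright and dim CMs of M116, where the control level rests on 42 counts, 88.1% of them in 1 cell. Btg2 was 2.41 and 1.34 times the control of its series in M25 and 10.3 and 11.8 times in M116, and Nr4a1 was 4.71 and 4.32 times in M25 and 2.59 and 3.04 times in M116. In M73 3 cells held 99.3% of the Btg2 and 92.2% of the Nr4a1 counts, and without them its levels were 0.425 and 11.9 CPM, so that the sizes of the ratios over M73 rest on few cells. The direction of these 3 genes was the same within both series, with 1 mouse of each genotype in each. Egr1 and Junb in the dim CMs of M25 were 0.876 and 0.961 times the level of M26, where 3 cells held 90.4% and 83.3% of the counts. Without the 3 highest cells of each sum the order turned for both, with 3.78 and 3.29 CPM of Egr1 and 6.25 and 2.65 CPM of Junb in the dim CMs of M25 and in M26.

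The sums were compared between groups of 2 mice with edgeR's quasi-likelihood test over all genes that passed its filter, with Benjamini-Hochberg adjustment. The genes had been chosen on these same cells, so the fits describe them and nothing further is read from their number. Of the 10 genes, 9 were tested in homozygous bright against control CMs and all 9 had positive log2 fold changes, with a median of 2.02 beside 0.11 over the 12203 genes tested. Without the 3 cells, Jun had a log2 fold change of -0.04. None of the 9 was called by edgeR at an adjusted p under 0.05, where 0.0164% of all genes tested were called, and 2 of the 9 passed an unadjusted p of 0.05. DESeq2 on the same genes called 2 of them, Atf3 and Btg2, where it called 1.01% of all genes, and limma on cell means called none. The share of all genes called by limma is not given here or below, so nothing is read from its calls.

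Atf3 had a log2 fold change of 3.54 (SE 0.90, adjusted p = 0.663 by edgeR and 0.00877 by DESeq2) and Btg2 one of 2.02 (SE 0.50, adjusted p = 0.663 and 0.0320) in bright against control CMs. The other values were 3.21 for Junb, 2.67 for Fos, 2.28 for Egr1, 1.23 for Ier2, 1.18 for Nr4a1, 1.09 for Fosl2 and 0.22 for Jun. Without the 3 cells low in CM markers, Junb went from 3.21 to 1.01 and Egr1 from 2.28 to 0.44, while Atf3 was at 3.57 and Btg2 at 2.07. Without the bright CMs of M25 altogether, Junb was at -0.16 and Egr1 at -0.12. Leaving out each mouse in turn gave 1.68 to 4.36 for Atf3, 1.42 to 2.50 for Btg2, 1.43 to 5.57 for Fos and 0.42 to 2.80 for Nr4a1. With equal weight per cell (limma) Atf3 was at 2.21 in bright and 2.22 in dim against control CMs. In M26, 1 cell with 1112 CPM of Atf3 raised the cell mean to 53.8 CPM, against 8.83 CPM in the sum. No cell of M26 held more than 43.4% of its 173 Atf3 counts, so the total of this cell lay far below the median of 932052. It had 556 CPM of Nr4a1 and no count of the other members of the 10. The limma values of Atf3 thus rest in part on few counts in a cell of low depth. In CPM, both homozygous mice lay above both controls in Fos, Atf3, Btg2 and Nr4a1, that is in 4 of 9, where 33.7% of all genes tested did so.

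In homozygous dim against control CMs, 8 of 9 genes tested had positive log2 fold changes, with a median of 1.18 beside 0.10 over 12195 genes. Jun, at -0.14, was the exception, and it turned positive with scaling by library size alone (0.14). Atf3 was at 3.86 (SE 1.01, adjusted p = 0.735 by edgeR and 0.00347 by DESeq2), Fos at 2.56, Btg2 at 1.97, Nr4a1 at 1.36, Fosl2 at 1.18, Junb at 0.89, Ier2 at 0.88 and Egr1 at 0.34. By edgeR none of the 9 was called, against 0.0% of the genes tested, and 2 passed an unadjusted p of 0.05. DESeq2 called 1, Atf3, beside 0.522% of all genes, and limma none. With the plate series as a block, edgeR called Atf3 in dim against control CMs as well (log2 fold change 3.07, SE 0.60, adjusted p = 0.0142), beside 0.0984% of all genes in that fit. Fos, Atf3, Btg2 and Ier2 did not overlap between the groups in CPM, 4 of 9 beside 32.5% of all genes tested, though without the 3 highest cells of each sum Ier2 in dim CMs, at 7.12 and 6.99 CPM, lay below M26 with 7.56 CPM. Leaving out each mouse in turn gave 1.46 to 4.76 for Atf3, 0.59 to 2.72 for Btg2, 0.98 to 5.49 for Fos and 0.32 to 2.95 for Nr4a1.

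Some other edgeR fits called members. Without a filter on low counts, 5 were called in bright against control CMs (Btg2, Fos, Atf3, Egr1 and Junb), beside 0.787% of all genes, 2 in dim against control CMs (Btg2 and Atf3), beside 0.287%, and 2 in bright against dim CMs (Egr1 and Junb), beside 0.992%. Without M25, Atf3 was called in bright against control CMs, beside 0.107% of all genes, and in dim against control CMs, beside 0.0714%. Without the bright CMs of M116, Junb was called against control CMs, beside 0.308%, and Junb and Egr1 against dim CMs, beside 0.509%; these fits rest on the bright CMs of M25 and so include the 3 cells low in CM markers.

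**Figure D4:**
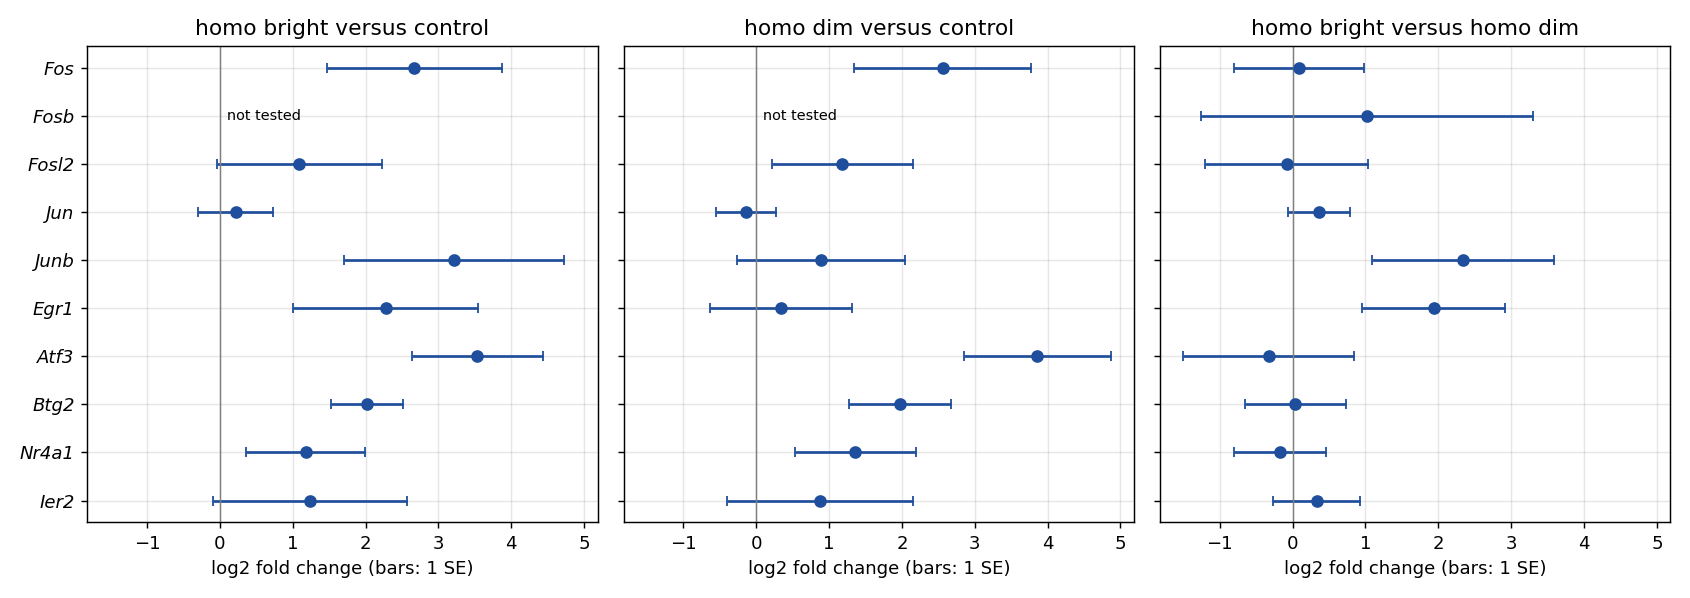
Log2 fold changes of the genes with bars of 1 SE from the edgeR fits of the 3 comparisons, over sums of 2 mice per group. Atf3 lies at 3.54 and 3.86 in both comparisons with control CMs and at -0.33 between bright and dim CMs, and Fosb was not tested against control CMs.

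The ratio of bright over dim CMs was above 1 in M25 and below 1 in M116 for 7 of the 9 genes found in both classes of both homozygous mice. Bright over dim in M25 was above 1 for 8 of 9 genes, among them Jun (1.84), Btg2 (1.80), Ier2 (1.80) and Atf3 (1.18), with Fosl2 at 0.604 as the exception, and without the 3 cells low in CM markers Jun was at 1.40, Btg2 at 1.93 and Ier2 at 1.90. In M116 it was below 1 for 7 of 10 genes, among them Btg2 (0.874), Jun (0.789), Ier2 (0.695) and Junb (0.394). Without the 3 highest cells of each sum, Atf3 in M25 (16.4 and 21.1 CPM in bright and dim CMs) and Ier2 in M116 (7.37 and 6.99 CPM) turned. In M116 Fosl2 (46.0 and 50.5 CPM) and Fosb (0.447 and 0.679 CPM) turned as well. All 10 were tested over both mice, and their median log2 fold change was 0.21 beside -0.01 over 13439 genes. By edgeR none was called, beside 0.0% of all genes, and none had an unadjusted p under 0.05; DESeq2, which called 0.689% of all genes, and limma called none either. The largest values were 2.34 for Junb (SE 1.25) and 1.94 for Egr1 (SE 0.98), which became 0.11 (SE 0.67) and 0.08 (SE 0.43) without the 3 cells. Fosb was at 1.02 (SE 2.28), and the other genes lay between -0.33 for Atf3 and 0.36 for Jun. Bright and dim CMs came from the same 2 mice, and with the mouse as a block the values were -0.10 for Atf3 (SE 0.21, against 1.17 without the block), 0.29 for Btg2 (SE 0.29), 0.22 for Fos (SE 0.21) and -0.09 for Nr4a1 (SE 0.17). The block also moved Fosb to 2.10 (SE 1.87), Egr1 to 1.14 (SE 0.89) and Junb to 1.10 (SE 1.60), again with none called.

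In heterozygous M72, which has no replicate, bright over dim was 0.449 for Atf3, 0.574 for Egr1, 0.710 for Jun and 0.714 for Ier2, and 1.92 for Fosl2 and 1.57 for Junb. Btg2 (0.969), Nr4a1 (1.06) and Fos (0.900) were near 1. The directions of Egr1, Fos, Junb and Btg2 turned on single cells. Without the 3 highest cells of each class Egr1 stood at 6.66 CPM in bright and 2.33 CPM in dim CMs, Fos at 16.0 and 8.84 CPM, Junb at 2.10 and 3.99 CPM and Btg2 at 74.8 and 71.6 CPM. Atf3, Btg2 and Fos had levels in M72 between those of the controls and those of M116 in both classes, except that without the 3 highest cells Fos in dim CMs lay below the 9.65 CPM of M26.

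Co-expression between the 10 genes was weak in most classes. The median Spearman correlation over the pairs of genes, across the cells of 1 mouse and class, was 0.33 in control M26 (24 cells), 0.32 and 0.12 in the bright CMs of M25 and M116 (21 and 59 cells), 0.05 and 0.15 in their dim CMs (18 and 50 cells), and 0.28 and 0.23 in the bright and dim CMs of M72 (27 and 26 cells). Without the 3 cells low in CM markers the bright CMs of M25 gave 0.30. Control M73, with 9 cells, was left out. There are 45 pairs where Fosb had a count and 36 where it had none. Over all pairs of genes with a count in at least 50% of the cells, the medians were 0.23, 0.22, 0.09, 0.03, 0.06, 0.13 and 0.10, in the order of control M26, bright M25, bright M116, dim M25, dim M116, bright M72 and dim M72. The 10 genes lay above this level in each class. They were chosen on their co-expression in these cells, so nothing is read from that. The level is also one of widely found genes, whereas Egr1 had a count in 20.8% and Junb in 37.5% of the CMs of M26. The cells of a class share library preparation and differ in depth.

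**Figure D5:**
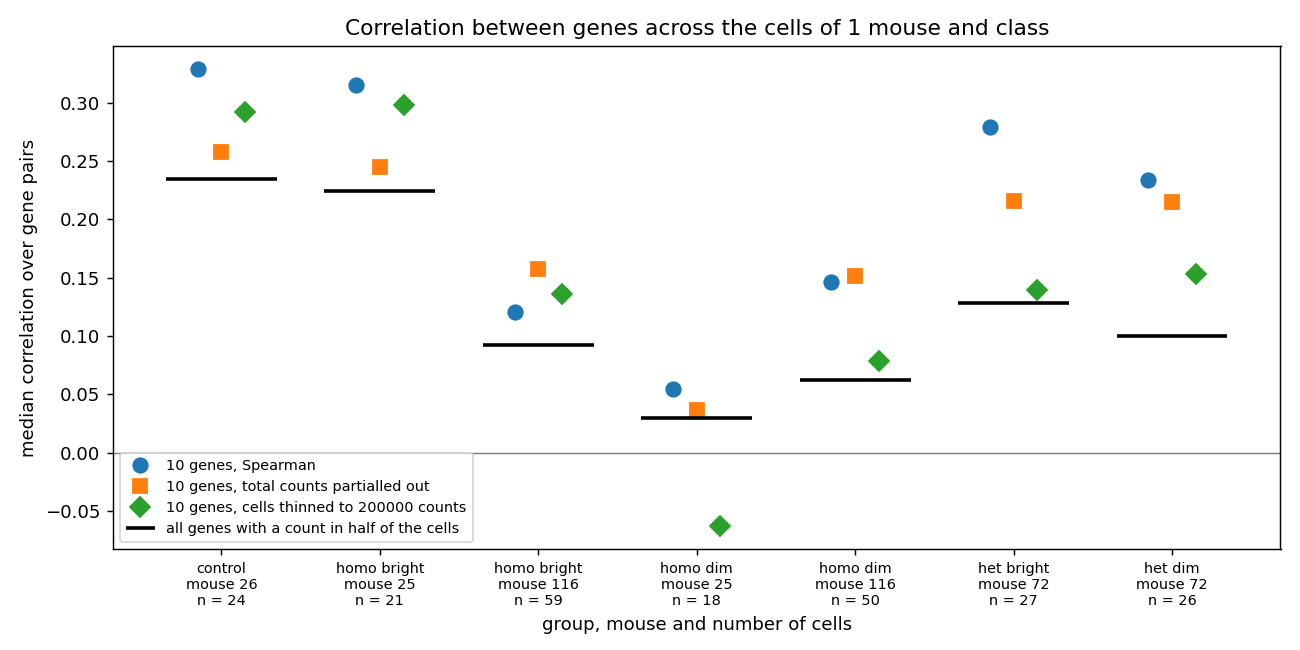
Median correlation over the pairs of the 10 genes (circles: Spearman, squares: with total counts partialled out, diamonds: after thinning to 200000 counts) beside the median over all pairs of widely found genes (black bars), for the 7 classes with 18 cells or more. The circles lie above the bars in every class, while the diamond of the dim CMs of M25 lies below 0. The genes were chosen on their co-expression, so this is a description, and the bars are without thinning.

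The mean standardized level of the 10 genes correlated with the number of genes found in a cell in all 7 classes (Spearman 0.49 to 0.65) and with total counts (0.14 to 0.53). With total counts partialled out, the median over pairs was 0.26 in control M26, 0.24 and 0.16 in bright CMs of M25 and M116, 0.04 and 0.15 in their dim CMs and 0.22 and 0.21 in M72. After thinning it was -0.06 in the dim CMs of M25 and 0.08 to 0.30 in the other classes.

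Among the pairs, Fos and Btg2 had the highest median correlation over the 7 classes, 0.47, with a range of 0.16 to 0.54. With total counts partialled out its median was 0.39, below Junb and Egr1 (0.42) and Atf3 and Btg2 (0.41). In the dim CMs of M116, 43 of 50 cells had counts on both, 5 on Btg2 alone and none on Fos alone. Junb and Egr1 followed with a median of 0.44 and a range of -0.11 to 0.78, the highest value being that of the bright CMs of M25, which was 0.74 without the 3 cells low in CM markers. Egr1 correlated with Ier2 (0.38, range 0.22 to 0.72) and with Jun (0.37, range 0.12 to 0.58) in the same direction in all 7 classes. Atf3 and Btg2 had a median of 0.35, between -0.02 in the dim CMs of M25 and 0.68 in the dim CMs of M72. Against the mean of the other 9, Nr4a1 had the lowest median of the widely found genes, 0.23. Its range was wide, from -0.005 in the dim CMs of M116 to 0.59 in the bright CMs of M72.

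Correlations with the transgene differed between classes. The correlation of their mean level with hBAG was 0.47 and 0.37 in the bright CMs of M25 and M116, 0.70 and 0.03 in their dim CMs, and -0.01 and -0.06 in the bright and dim CMs of M72. With BAG_eGFP, the other transgene feature, it was 0.25 and -0.08 in the bright CMs of M25 and M116, 0.64 and -0.14 in their dim CMs, and 0.21 and -0.25 in M72, so that the features differed in sign in both classes of M116 and in the bright CMs of M72. Without the 3 cells low in CM markers, the bright CMs of M25 gave 0.18 with hBAG, 0.04 with BAG_eGFP and 0.31 with Bag3. For the endogenous Bag3 it ranged from -0.48 in the dim CMs of M25 to 0.47 in the bright CMs of the same mouse.

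The genes whose levels followed the mean of the 10 most closely over the 7 classes, among 5926 genes with a count in at least 25% of the cells of each, were Dusp1, a phosphatase that inactivates MAP kinases (median Spearman 0.56, range 0.21 to 0.72), and Cdkn1a, the cell cycle inhibitor p21 (0.53, range 0.13 to 0.59). Anxa7, Col4a1, Git2, Tpt1-ps3, Tcf4, Ostf1, Ndel1 and Ccar1 came next with medians of 0.49 to 0.46, beside a median of 0.18 over all these genes. Tpt1-ps3 is listed as a pseudogene and can share reads with its parent gene. Col4a1 is a collagen of basement membranes. The mean of the 10 genes also correlated with 8 endothelial markers in all 7 classes (0.13 to 0.65), with the 5 smooth muscle and pericyte markers in all 7 (0.07 to 0.63) and with the 8 fibroblast markers in 6 of 7 (-0.06 to 0.41). The part of these cell types in the co-expression was not tested.

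Other early response genes were taken from a list of 48 symbols that excludes the 10 and in which Cyr61 and Ccn1 name the same gene. In homozygous bright against control CMs, 39 were tested, 22 were higher and 17 lower, and the median log2 fold change was 0.18. In dim against control CMs 38 were tested, 20 were higher and 18 lower, with a median of 0.01. Over all genes tested, 54.1% were higher in bright and 54.2% in dim CMs, with medians of 0.11 and 0.10. These values also stand beside the lists below. edgeR called none in either (4 and 3 had an unadjusted p under 0.05). DESeq2 called 0 and 1, beside 1.01% and 0.522% of all genes, and limma none.

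Among them Klf10, a TGF-beta inducible zinc finger factor, had 0.817 and 0.244 CPM in control M26 and M73, 7.03 and 8.34 CPM in homozygous bright CMs and 8.54 and 10.2 CPM in homozygous dim CMs of M25 and M116, with log2 fold changes of 3.47 (SE 1.46) and 3.77 (SE 1.47). Klf4 stood at 1.12 and 0.0 CPM in controls and 1.69 and 19.3 CPM in homozygous bright, 3.59 and 22.8 CPM in homozygous dim CMs, and near 20.5 and 19.0 CPM in M72. M116 thus lay above M25 in Klf4, as it did in Atf3. The phosphatase gene Dusp6 was at 3.36 (SE 1.28) in dim against control CMs. Egr2, a relative of Egr1, had the largest fitted value in bright against control CMs, but it had no count in either control and at most 1.14 CPM in any sum, so no fold is given.

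Gadd45g, a growth arrest and DNA damage gene, went the other way. It stood at 254 and 222 CPM in control M26 and M73, at 142 and 115 CPM in homozygous bright CMs and at 66.6 and 65.7 CPM in homozygous dim CMs, with 121 and 212 CPM in M72. In dim against control CMs its log2 fold change was -2.14 (SE 0.33, adjusted p = 0.735 by edgeR and 3.62e-05 by DESeq2). The other lowest values were those of Zfp36l2 (-3.87 in bright and -2.99 in dim CMs), Csrnp1 (-2.46 and -2.68) and Cebpd (-2.46 in bright CMs). Their SEs were 1.43 to 1.58, and all lay below 23 CPM in every sum. In Csrnp1 the groups overlapped, with 2.40 and 22.2 CPM in M26 and M73. It had 1.74 and 4.15 CPM in the bright and 3.97 and 0.813 CPM in the dim CMs of M25 and M116. Dusp1, the gene that followed the 10 most closely from cell to cell, had 128 and 165 CPM in controls and 111 to 219 CPM in the homozygous classes, which overlapped.

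Between bright and dim CMs, edgeR called none of the 39 other early response genes tested. Of these, 24 were higher and 15 lower (median 0.10), 2 had an unadjusted p under 0.05, and DESeq2 and limma called none. Over all genes tested in this comparison, 49.5% were higher, with a median of -0.01. The highest values in bright CMs were those of Klf2 (1.39, SE 0.70), Ier5 (0.96, SE 0.38) and Gadd45g (0.93, SE 0.25), and the lowest those of Cebpd (-2.56), Errfi1 (-1.60) and Zfp36l2 (-0.87).

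Upstream regulators of the response, kinases and transcription factors of the MAP kinase, CREB and serum response factor routes, were not called either. Their list of 21 symbols holds Mrtfa and Mrtfb also under the former names Mkl1 and Mkl2, so it names 19 genes. In bright against control CMs 19 were tested, with 9 higher, 10 lower and a median of -0.04, and in dim against control CMs 12 were higher and 7 lower, with a median of 0.26. By unadjusted p under 0.05 there were 1 and 2, and none by DESeq2 or limma. Mapk7, which encodes the kinase ERK5, had no count in either control and 0.634 to 3.06 CPM in the homozygous classes, and Elk1 (2.63 and 2.83) and Atf1 (1.44) or Rps6ka1 (1.37) followed. At the lower end, Mrtfa, a coactivator of serum response factor, was at -1.74 and -2.50 and Creb1 at -1.53 and -1.93 in bright and dim CMs. Creb1 stood at 19.5 and 74.9 CPM in the 2 controls and at 9.03 to 30.5 CPM in the homozygous classes, which overlapped. Elk3 (-1.23, bright) and Rps6ka5 (-0.77, dim) were the remaining low values. Between bright and dim CMs, Mrtfa (0.77), Rps6ka5 (0.67) and Mapk8 (0.57) were highest and Elk3 (-1.30), Crem (-1.10) and Mapk3 (-0.71) lowest of the 19, with none called and none under an unadjusted p of 0.05.

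None of the remaining AP-1 partners and family members was called. Of 11 listed, 6 were tested, and 5 were higher in bright and 4 in dim than in control CMs, with medians of 0.29 and 0.25, none called by edgeR, DESeq2 or limma and none under an unadjusted p of 0.05. Mafk (1.86 and 1.58), Mafg (1.22 and 0.40) and Atf7 (0.34 and 0.98) were highest. Atf4, the factor of the integrated stress response, was at -0.22 (SE 0.35) and -0.80 (SE 0.39) and Jund at -0.38 in dim CMs. Jund stood at 7.87 to 20.5 CPM in all sums and Fosl1 had no count in any; both are also in the list of early response genes. Between bright and dim CMs, 5 of 6 were higher, with Mafg (0.81), Atf4 (0.57) and Jund (0.43) first and Atf7 (-0.64) last.

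Heat shock genes that are known to follow tissue dissociation were tested as a list of 12, of which 10 passed the filter. In both comparisons with control CMs 3 were higher and 7 lower, with medians of -0.14 and -0.21, none called by edgeR, DESeq2 or limma and none under an unadjusted p of 0.05. Dnajb4 (0.77 and 0.55), Dnaja1 (0.41 and 0.58), Hsp90aa1 (0.31, bright) and Hspd1 (0.03, dim) were the highest. Hspe1, a mitochondrial chaperonin (-0.74 and -0.70), Hsph1 (-0.60, bright), Hspb1 (-0.66, dim) and Dnajb1 (-0.36 and -0.56) were the lowest. The inducible Hspa1a and Hspa1b had at most 3.84 CPM in any sum. Between bright and dim CMs 5 were higher and 5 lower, from Hsp90aa1 (0.49), Hspb1 (0.46) and Dnajb4 (0.21) to Dnaja1 (-0.17), Hspd1 (-0.09) and Hsph1 (-0.07). From cell to cell, the mean of this list correlated with that of the 10 genes in all 7 classes (0.12 to 0.53), as did the other early response genes (0.44 to 0.73) and the upstream regulators (0.35 to 0.54), all of which also share depth with them.

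Markers of other cell types were low against the CM markers in all but single cells. The 8 fibroblast markers summed to 2537 CPM in the bright CMs of M25, from the cell described above, and to 33.4 to 514 CPM in the other sums, with Col1a1 and Pdgfra at 0 in control M73 and Pdgfra and Tcf21 at 0 in the dim CMs of M25 and M72. The 7 macrophage and leukocyte markers summed to 75.2 and 67.0 CPM in the dim CMs of M25 and M116, to 0.264 and 2.00 CPM in their bright CMs, to 25.1 and 3.25 CPM in the bright and dim CMs of M72 and to 2.09 CPM in control M26 and 11.96 CPM in control M73, and Ptprc was at 0 in 6 of the 8 sums. The 5 smooth muscle and pericyte markers summed to 25.4 to 133 CPM, with Myh11 at 0 in 7 sums. The 4 erythroid markers summed to 331 CPM in the dim CMs of M25 and 984 CPM in the bright CMs of M72 and to less than 4 CPM elsewhere. The 8 endothelial markers summed to 102 and 196 CPM in the bright and dim CMs of M116 and to 86.8 to 198 CPM over all sums. The part of these cell types in the levels of the 10 genes was not tested.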

How the data were processed

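Single CMs of 5 mice were measured by SMART-seq2. The authors demultiplexed the reads (bcl2fastq), aligned them with STAR and deposited the resulting raw counts per gene as whole numbers for 55538 features and 234 cells; the genome build, annotation and strand setting are not given in the sources used here. Reads shared with paralogs or antisense genes cannot be told apart. The labels gave the mouse, genotype and brightness of each cell. The 10 genes and the gene lists were chosen with earlier results of these data known.

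For each mouse and brightness class 1 summed library was formed, and groups of 2 mice were compared in R 4.3.3 with the quasi-likelihood test of edgeR 4.0.16 after its expression filter and TMM scaling (Benjamini-Hochberg adjustment, threshold 0.05). Heterozygous CMs came from 1 mouse and were not tested. SEs were derived from the quasi-likelihood F statistic. No source says how separately the cells of 1 mouse were prepared. DESeq2 1.42.0 on the filtered genes, library size alone, no filter, cells with at least 1000 genes, limma 3.58.1 on log2 of mean CPM plus 1, the plate series or the mouse as a block, and each mouse left out in turn were alternatives, and leaving out 3 cells was added after seeing the data. The script was tested on simulated data. Bright and dim CMs of 1 mouse come from the same animal and are therefore paired; over 13439 genes the deviations of mice from their class mean correlated with r = 0.08, and 8 of the 10 genes deviated the same way. Correlations over cells are Spearman's, for classes of 18 cells or more. Named were the 10 genes, in each list up to 3 of the highest and 3 of the lowest log2 fold changes per comparison, and the 10 genes most like them over cells; other genes were named after their values were seen. Mitochondrial shares count symbols beginning with mt and the 13 mitochondrial coding genes, which are listed without that prefix. A count of 0 allows up to 3 counts, and intervals and such limits cover counting error only.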

Additional observations from a re-analysis of the deposited data

Results flagged for a closer look

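Fos was higher in bright than in dim CMs of both homozygous mice, 1.39-fold in M25 and 1.03-fold in M116, and lower in the bright than in the dim CMs of heterozygous M72, at 0.900 times. This opposite direction is why the gene is listed here. The difference between the genotypes was not tested, as there was 1 heterozygous mouse, and the ratio of M116 was smaller than that between its plates (1.53-fold in bright CMs). In M72 1 dim cell held 43.5% and 3 dim cells 85.0% of the dim Fos counts, and without the 3 highest cells of each class Fos stood at 16.0 CPM in bright and 8.84 CPM in dim CMs, which is the opposite direction. The share of positive cells was 55.6% in bright and 46.2% in dim CMs.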

How the results depend on the processing

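edgeR called none of the 10 genes in any comparison. In bright against control CMs, DESeq2 called 2 and edgeR without a filter on low counts 5; in dim against control CMs DESeq2 called 1, no filter 2 and the plate series as a block 1; in bright against dim CMs no filter called 2. With each mouse left out in turn, 0 to 1, 0 to 1 and 0 to 2 were called in the 3 comparisons: Atf3 without M25 in both comparisons with controls, Junb without bright M116 against controls, and Junb and Egr1 without bright M116 against dim CMs. The mouse as a replicate block changed no call between bright and dim CMs (0 of 10). With 1 mouse left out, the median log2 fold change ran from 1.43 to 3.36 in bright and from 0.58 to 2.50 in dim against control CMs. Between bright and dim CMs it ran from -0.74 to 1.62. A group left with 1 mouse takes its spread from the 2 mice compared with it. Over all genes, DESeq2 called 106, 55 and 89 in the 3 comparisons, where edgeR called 2, 0 and 0.

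Left out in turn, the mice also turned the sign of single genes. In bright against control CMs the ranges were -1.18 to 2.11 for Fosl2, -0.12 to 4.42 for Egr1, -0.46 to 0.69 for Jun and -0.16 to 5.46 for Junb, and Jun was at -0.042 without the 3 cells low in CM markers. In dim against control CMs they were -0.44 to 2.17 for Fosl2, -0.47 to 2.50 for Egr1, -0.27 to 0.013 for Jun and -0.0100 to 4.17 for Ier2, and Jun was at 0.14 with library size alone and 0.39 with limma. In bright against dim CMs they were -2.12 to 8.69 for Fosb, -0.65 to 1.43 for Btg2, -1.17 to 1.72 for Fos, -0.92 to 0.86 for Nr4a1, -2.16 to 2.07 for Atf3, -2.34 to 1.53 for Fosl2, -0.53 to 2.80 for Egr1, -0.37 to 0.84 for Jun, -1.12 to 3.27 for Junb and -0.66 to 0.92 for Ier2. Against control CMs, Atf3, Btg2, Fos and Nr4a1 kept a positive sign with every mouse left out, but leaving out 1 mouse moved their folds by over 1.5 times. Ier2 in bright (0.29 to 4.49) and Junb in dim CMs (0.08 to 3.15) also stayed positive but moved widely.

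The mean share of positive cells moved by more than the spread between mice, or for the 1 heterozygous mouse beyond its counting interval, in these cases. At 10 counts or more it was 24.2% in control, 51.1% in homozygous bright, 55.8% in homozygous dim, and 31.5% and 34.6% in heterozygous bright and dim CMs. With cells of at least 1000 genes it was 45.2% in control and 65.8% in homozygous bright CMs, thinned to 200000 counts it was 59.8% in homozygous bright CMs, and without the 3 cells 65.8%. The median correlation of homozygous dim CMs was 0.0078 after thinning. The cause of these changes was not tested. With 2 mice per group and SEs of 0.41 to 2.28 on the log2 scale, changes of several-fold could go uncalled.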
